A study of Mus musculus with 12 samples.

Results

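The 10 genes of the osteoclast programme and of the RANK ligand axis described here were followed through single-cell libraries of mouse tumours: Tnfsf11, Tnfrsf11b, Tnfrsf11a, Nfatc1, Itgb3, Dcstamp, Atp6v0d2, Ctsk, Acp5 and Mmp9. They are 10 of the 32285 genes in each count matrix and all 10 were found by symbol. They were selected with results of these tumours known: a small cluster of cells led by Ctsk, Acp5 and Mmp9 was present in some tumours and absent in others, and Mmp9 was low in macrophages of Mif knockout tumours. The size of that cluster, the differences in Ctsk, Acp5 and Mmp9, and those in Dcstamp and Atp6v0d2 over all cells of a tumour, are therefore given as descriptions, with no test, between groups and between days.

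The tumours came from mouse lines named SCC35, of a series on melanoma rejection. The control group holds lines 15 and 18, labelled Mif KO controls, and the knockout group holds lines 19 and 24, labelled Mif KO. The gene Mif codes for a secreted cytokine, the macrophage migration inhibitory factor. Hashtags are tied to lines and to days 0, 6, 10 and 16 by a deposited sheet. How the knockout was made, whether a line is a clone, the strain, age and sex of the host and how tumours were raised are not stated in the labels. Each group has 2 lines, so a difference between Mif KO and control and a difference between lines cannot be told apart. Nothing states that tumours of a line came from separate animals, so p-values over tumours measure the spread between these samples, which may be technical.

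RANK ligand, encoded by Tnfsf11, is a membrane-bound or shed cytokine of the TNF family made by bone-forming and stromal cells, activated fibroblasts and T lymphocytes. It binds RANK (Tnfrsf11a) on monocyte-lineage precursors, and osteoprotegerin (Tnfrsf11b) is a secreted decoy that takes the ligand away from the receptor. RANK signalling, with the growth factor CSF1, drives the transcription factor Nfatc1, which turns on the genes for cell fusion, acid secretion and matrix digestion that make an osteoclast, the multinucleated cell that resorbs bone. Osteoclast-like giant cells are also known from some soft-tissue tumours. In GENCODE M21 (GRCm38), Tnfsf11 lies at chr14:78277445-78308043 on the minus strand, Tnfrsf11b at chr15:54250619-54278484 on the minus strand and Tnfrsf11a at chr1:105780718-105847981 on the plus strand. The proteases Ctsk and Mmp9 lie at chr3:95499256-95509362 and chr2:164940780-164955850 (plus strand), and Acp5 at chr9:22126727-22135711 (minus strand). The libraries capture the 5′ end of transcripts, and counts are per gene.

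From 176381 barcodes in 6 libraries, 163866 cells were kept and 91730 of these carried a single hashtag of a labelled sample. These made up 42 samples, 21 in each group, with 224 to 4578 cells and 1975214 to 27576694 UMIs (unique molecular identifiers, counted RNA molecules) per sample. Of these, 18 control and 17 knockout samples are of days 6 to 16 and are called tumours here. How the 7 samples of day 0 were obtained is not stated in the labels, and they held nearly only line compartment and ungated cells. Pairs of libraries shared 802 to 1613 cell barcodes, and hashtag doublets were 17.9% to 30.9% of passing cells. Cells were placed in classes by marker genes. The largest class, 53200 cells with few immune UMIs, is named here the line compartment. It had little RNA of most melanocyte markers examined. Tyr and Tyrp1 were at 0 UMIs and Dct at 1 UMI. Mlana, Pmel and Sox10 were at 0.0641, 0.143 and 0.376 CPM (a gene's UMIs scaled to a common total of UMIs). Mitf was higher, at 13.3 CPM. Mean Mif in the line compartment was 2461 CPM in line 15 and 2189 in line 18, against 109 in line 19 and 470 in line 24. Fibroblasts did not follow the line: their mean Mif was 1237 to 1310 CPM in tumours of all 4 lines.

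Osteoclast-like cells, called by at least 3 UMIs each of Ctsk, Acp5 and Mmp9, made up a mean of 1.81% ± 1.39 (SD, n = 18 tumours) of the cells of control tumours on days 6 to 16. The lowest control tumour had 0%, the median was 1.80% and the highest was 4.54%. In knockout tumours the mean was 0.0190% ± 0.0358 (SD, n = 17), with a median of 0% and a highest value of 0.128%. In cells, this was 690 of 41171 in control and 8 of 44183 in knockout tumours. All 8 came from line 19, and line 24 had 0 of 19649 cells. Of the 18 control tumours, 16 lay above every knockout tumour, and the other two were day 6 tumours of line 15. The 7 samples of day 0, which held few or no macrophages, had no such cell among 6376.

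**Figure D1:**
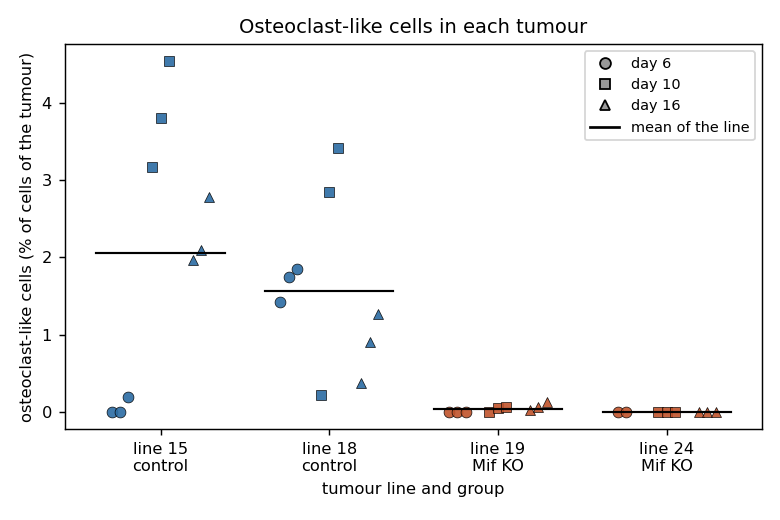
Percent of a tumour's cells that were osteoclast-like (y axis), by line (x axis); each symbol is 1 tumour, its shape gives the day, and the bar is the mean of the line. Control lines 15 and 18 reached 4.54% and 3.42%, while no tumour of lines 19 and 24 was above 0.128%.

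In line 15 these cells were nearly absent on day 6. Its 3 day 6 tumours had 0, 0 and 3 such cells, its day 10 tumours had a mean share of 3.84% ± 0.682 (SD, n = 3) and its day 16 tumours 2.28% ± 0.440 (SD, n = 3). Line 18 already held 1.67% ± 0.224 on day 6, then 2.16% ± 1.70 on day 10 and 0.848% ± 0.447 on day 16 (SD, n = 3 each). The day 10 spread of line 18 came from 1 tumour with 6 such cells of 2699 (0.222%), beside tumours at 2.84% and 3.42%. With a threshold of 1 UMI of each gene the control mean was 2.13% and the knockout mean 0.0281%. With 10 UMIs they were 1.31% and 0.0128%. Hashtag doublets held osteoclast-like cells too, at 3.09% of doublets against 1.74% of singlets in the library of line 15. In the library of line 24, 0 of 34208 passing cells of any hashtag status were osteoclast-like. That library was shallower, with a median of 3072 UMIs per passing cell against 9121.5 in the library of line 15. The gate asks for a fixed count of UMIs and is stricter in shallow cells.

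The label was checked on 16 osteoclast genes that did not choose the cells. In the 690 cells of control tumours all 16 had a higher level than in control macrophages and monocytes, and for the 15 above the level of 3 UMIs there the ratio ran from 1.86 (Ostm1) to 559 (Oscar), with a median of 7.51. The smallest ratios after Ostm1 were those of Mitf (2.07), Tcirg1 (3.04) and Clcn7 (3.12), genes that macrophages also express. Ocstamp, a fusion protein like Dcstamp, was at 347 CPM, against 9.89 CPM in macrophages and monocytes. Oscar, an immunoglobulin-like receptor that costimulates osteoclast formation, was at 133 against 0.237 CPM. Car2, the carbonic anhydrase that supplies protons, was at 153 against 1.78 CPM, and Rufy4 at 75.7 against 0.356 CPM. Calcr, the calcitonin receptor of mature osteoclasts, had only 5 UMIs in the 690 cells and none in 7920 macrophages and monocytes. Some macrophage genes were low: Adgre1 was at 1.49 against 195 CPM, Lyz2 at 53.2 against 4415 CPM and Mrc1 at 7.26 against 397 CPM. The macrophage and monocyte class was itself chosen by macrophage markers. Csf1r, the receptor for CSF1, was present in both, at 398 and 328 CPM. The transcription factor Irf8, which restrains osteoclast formation, was at 7.26 against 108 CPM. These cells were chosen by their RNA, so the values describe them and are not tests.

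Of the UMIs of control tumours on days 6 to 16, osteoclast-like cells held 93.2% of Mmp9, 88.6% of Ctsk, 84.9% of Acp5, 77.2% of Dcstamp and 64.8% of Atp6v0d2, but 27.1% of Tnfrsf11a, 25.2% of Itgb3 and 16.2% of Nfatc1. Most other Tnfrsf11a UMIs lay in macrophages and monocytes, 62.6% of the Nfatc1 UMIs in the line compartment and 37.9% of the Itgb3 UMIs in fibroblasts. Among control tumours with at least 20 osteoclast-like cells (n = 13), Ctsk, the cysteine protease that digests bone collagen, had a lowest value of 5395, a median of 8691 and a highest value of 10666 CPM. Acp5, tartrate-resistant acid phosphatase, had a lowest value of 3945, a median of 8334 and a highest value of 14445 CPM. Mmp9, a gelatinase, had a lowest value of 2481, a median of 4223 and a highest value of 7067 CPM. Atp6v0d2, a proton pump subunit needed for fusion, averaged 749 ± 131 CPM, Dcstamp, a membrane protein of cell fusion, 283 ± 75.1 CPM, Nfatc1 518 ± 91.1 CPM and Tnfrsf11a 149 ± 31.5 CPM (SD, n = 13). Itgb3, the β3 integrin chain of the sealing zone, averaged 56.9 ± 34.3 CPM (SD, n = 13), near its mean of 57.8 CPM in fibroblasts (n = 18) and 57.0 CPM in T cells (n = 15) of control tumours. The ligand and the decoy were nearly absent: all 690 cells together held 1 UMI of Tnfsf11 and 1 of Tnfrsf11b. The ligand RNA was found in other classes.

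Promoter sequences are shown for the ligand, its receptor and 2 of the genes that mark the osteoclast-like cells, because the results turn on which cells hold their RNA. They are the 250 bases before the RefSeq transcription start in GRCm38.p6, written 5′ to 3′ on the gene's strand, with capitals on matches to the NFAT core GGAAA or the PU.1 core GAGGAA on either strand. Tnfsf11 (chr14:78308044-78308293, minus strand) had 1 NFAT core, Tnfrsf11a (chr1:105780473-105780722, plus strand) no match, Ctsk (chr3:95498960-95499209, plus strand) 2 PU.1 cores, and Acp5 (chr9:22135747-22135996, minus strand, the farthest upstream of 3 starts) 1 NFAT core.
Tnfsf11: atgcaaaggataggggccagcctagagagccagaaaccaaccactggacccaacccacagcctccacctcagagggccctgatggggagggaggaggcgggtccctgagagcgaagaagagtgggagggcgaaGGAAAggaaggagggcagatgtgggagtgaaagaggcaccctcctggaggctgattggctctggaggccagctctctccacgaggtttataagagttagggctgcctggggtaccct
Tnfrsf11a: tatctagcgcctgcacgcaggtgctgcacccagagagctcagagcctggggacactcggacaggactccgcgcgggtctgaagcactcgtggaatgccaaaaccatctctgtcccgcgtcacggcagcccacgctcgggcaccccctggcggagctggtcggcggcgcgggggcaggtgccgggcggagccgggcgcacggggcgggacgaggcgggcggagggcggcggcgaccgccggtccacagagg
Ctsk: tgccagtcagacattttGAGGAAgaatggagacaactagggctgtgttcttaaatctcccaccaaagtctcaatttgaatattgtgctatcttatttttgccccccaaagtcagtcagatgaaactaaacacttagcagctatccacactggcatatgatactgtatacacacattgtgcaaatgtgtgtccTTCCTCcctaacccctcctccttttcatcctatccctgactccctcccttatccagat
Acp5: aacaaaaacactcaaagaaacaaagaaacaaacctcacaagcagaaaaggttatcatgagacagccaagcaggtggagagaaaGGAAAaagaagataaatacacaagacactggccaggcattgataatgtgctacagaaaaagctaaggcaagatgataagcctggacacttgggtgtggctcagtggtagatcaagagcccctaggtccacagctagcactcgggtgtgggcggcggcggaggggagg
Of 32851 mouse promoters of this length, 55.6% hold the NFAT core and 23.3% the PU.1 core, so such matches are common. None of the 4 sequences held the E-box CACGTG, the M-box CATGTG or the AP-1 site TGANTCA, which 6.02%, 12.3% and 6.75% of promoters hold. A match is a run of letters and not evidence of binding.

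**Figure D2:**
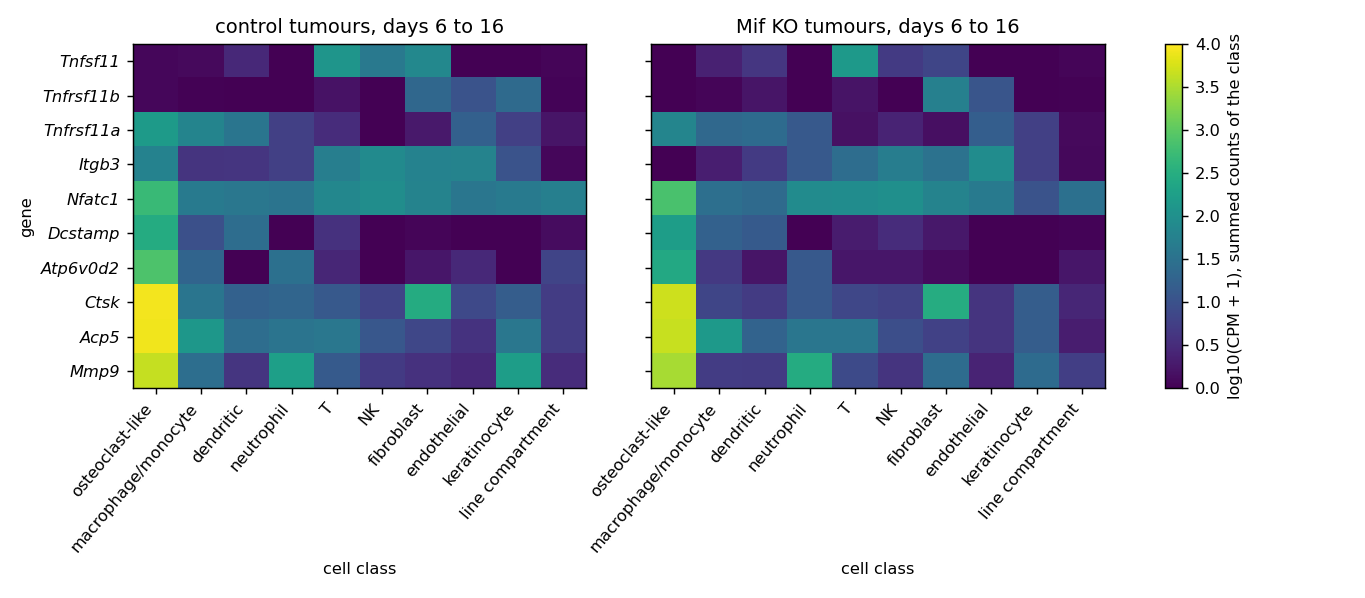
Level of each member (rows) in each cell class (columns), as log10 of CPM + 1 of the summed counts of the class, in control (left) and Mif KO tumours (right) of days 6 to 16. Ctsk, Acp5 and Mmp9 are brightest in osteoclast-like cells (8 cells in knockout tumours), while Tnfsf11 is bright in T cells of both groups but in fibroblasts of the control group, at 73.0 against 5.94 CPM.

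The classes that held Tnfsf11 are given as shares of all its UMIs. In control tumours, 958 UMIs of Tnfsf11 were counted on days 6 to 16, and 61.0% of them lay in fibroblasts and 23.0% in T cells. In knockout tumours there were 1434 UMIs, with 2.58% in fibroblasts and 80.5% in T cells. By line, fibroblasts held 64.7% and 53.0% of the UMIs in lines 15 and 18, and 3.98% and 1.32% in lines 19 and 24. T cells held 21.7% and 25.7% in the control lines and 82.0% and 79.2% in the knockout lines. The line compartment held 2.82% and 1.88%, and macrophages and monocytes 0.731% and 1.26%, in control and knockout tumours. Such shares depend on the cells caught, and there were 897 T cells and 1027 fibroblasts in control tumours, and 4034 T cells and 787 fibroblasts in knockout tumours. The level per cell class is therefore given next.

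**Figure D3:**
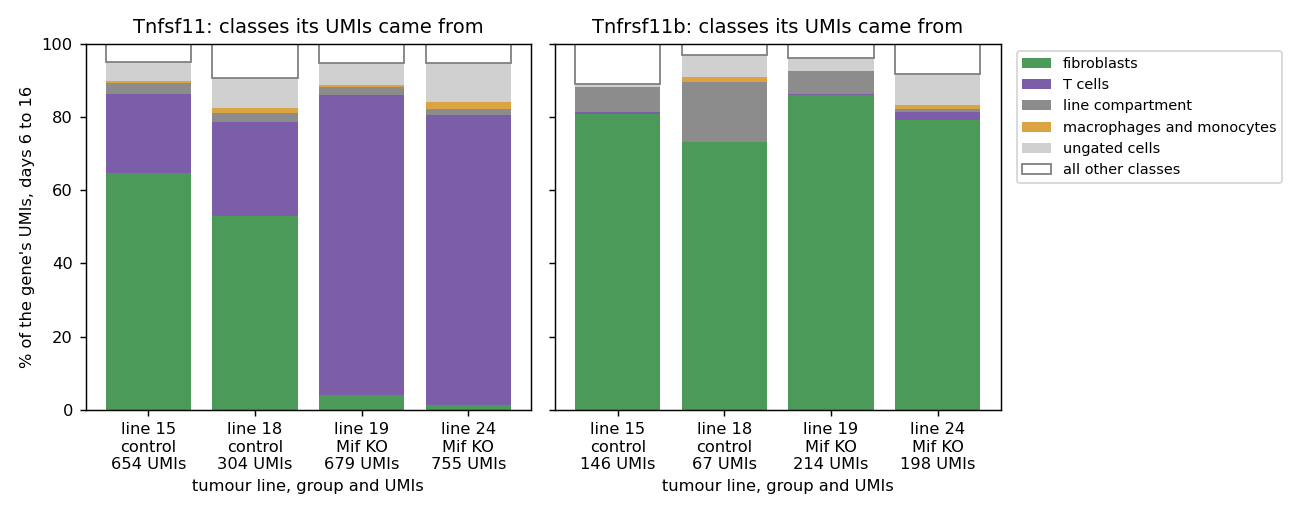
Share of the Tnfsf11 (left) and Tnfrsf11b (right) UMIs of days 6 to 16 that came from each cell class (y axis, percent), by line (x axis, with the UMIs counted). Fibroblasts held 64.7% and 53.0% of the Tnfsf11 UMIs in lines 15 and 18 but 3.98% and 1.32% in lines 19 and 24, and most Tnfrsf11b UMIs in all 4 lines.

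Within fibroblasts, Tnfsf11 had a lowest value of 12.9, a median of 54.6 and a highest value of 197 CPM in 18 control tumours. In the 13 knockout tumours with at least 20 fibroblasts it had a lowest value of 0, a median of 6.21 and a highest value of 14.8 CPM. The groups barely overlapped, since 17 of 18 control tumours lay above every knockout tumour. The means were 69.0 ± 55.1 (SD, n = 18) and 6.80 ± 4.59 CPM (SD, n = 13). Line means were 91.8 and 46.2 CPM in lines 15 and 18, and 6.53 and 7.24 CPM in lines 19 and 24. In edgeR's quasi-likelihood test with day as a term, the log2 change in knockout tumours was -3.49 (SE 0.361, adjusted p = 7.81e-09). In this fit 18.4% of 5193 genes passed, and of the 5 members tested Tnfsf11 and Itgb3 fell and Tnfrsf11b rose. The fit was added after the class that held Tnfsf11 had been seen. Tnfsf11 could pass its low-count filter through control tumours alone, so the p-values are no independent support. With 1 sum per line, which leaves 2 sums against 2, the change of Tnfsf11 was -3.46 (adjusted p = 0.00116). In the 2 libraries where both groups were captured together it was -3.09 (adjusted p = 0.0014). Over 15 alternatives it ranged from -3.85 to -2.76, with a largest adjusted p of 0.0014. Members that passed the low-count filter of the main fit were kept in every alternative. The p-values of the alternatives are therefore no independent support either. Tnfsf11 in fibroblasts rested on few molecules, 584 UMIs in control and 37 in knockout tumours.

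Control fibroblasts were not uniform over time. In line 15 the 3 tumours of day 10 had 153, 197 and 182 CPM of Tnfsf11, above the day 6 tumours (60.9, 12.9 and 42.3 CPM) and the day 16 tumours (65.7, 87.6 and 24.1 CPM). Day 10 was also the day with the most osteoclast-like cells in this line. In line 18 the highest fibroblast value, 85.4 CPM, belonged to the day 10 tumour with only 6 osteoclast-like cells. The 2 control tumours without osteoclast-like cells had fibroblast Tnfsf11 of 60.9 and 12.9 CPM, the first of them above the control median. The knockout tumour with the most such cells, 3 of 2344, had 4.93 CPM.

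T cells held Tnfsf11 in both groups. In control tumours with at least 20 T cells it ranged from 26.9 to 305 CPM with a median of 86.9, and in knockout tumours from 35.7 to 275 CPM with a median of 121. These ranges overlapped almost fully. The means were 116 ± 83.2 (SD, n = 15) and 140 ± 66.3 CPM (SD, n = 17). The log2 change was 0.34 (SE 0.268, edgeR adjusted p = 0.443), where 15% of 2824 genes passed, and both members tested, Tnfsf11 and Nfatc1, did not. This value depended on the libraries used: the change of Tnfsf11 in T cells was 1.72 in the 2 mixed libraries alone (adjusted p = 0.0564), 1.06 without line 15 (adjusted p = 0.0535) and -0.14 without line 18 (adjusted p = 0.854). With no filter on low counts it was 0.51 and passed (adjusted p = 0.0211). The order of the groups also turned with the day. On days 6, 10 and 16 the T-cell means of Tnfsf11 were 164, 146 and 58.2 CPM in control tumours (n = 4, 5 and 6). In knockout tumours they were 86.9, 168 and 157 CPM (n = 5, 6 and 6). The difference by day was not tested.

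The difference between fibroblasts and T cells of the same tumour was then tested. The log2 ratio of Tnfsf11 in fibroblasts to that in T cells (with 1 CPM added) averaged -0.75 ± 1.29 (SD, n = 15) in control and -4.35 ± 0.96 (SD, n = 13) in knockout tumours. Fibroblasts were the higher class in 4 of 15 control tumours and in 0 of 13 knockout tumours. The difference of -3.60 had a two-sided permutation p of 2e-05, the smallest that 100000 resamples can give, with tumours of all days exchanged. With groups permuted within a day the p was 1e-05, the smallest of that scheme. Line means were -0.99 and -0.48 in lines 15 and 18, and -4.69 and -3.81 in lines 19 and 24, and with 1 mean per line the difference was -3.52 (exact permutation p = 0.33, the smallest that 2 against 2 allows). By day the control and knockout means were -1.87 (n = 4) and -4.36 (n = 5) on day 6, -0.49 (n = 5) and -4.25 (n = 6) on day 10, and -0.23 (n = 6) and -4.64 (n = 2) on day 16. Within the 2 mixed libraries the difference was -3.82 (exact permutation p = 0.0079, n = 5 against 5). This test was chosen after the values of both classes had been seen, and tumours of a line are treated as separate samples in it.

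**Figure D4:**
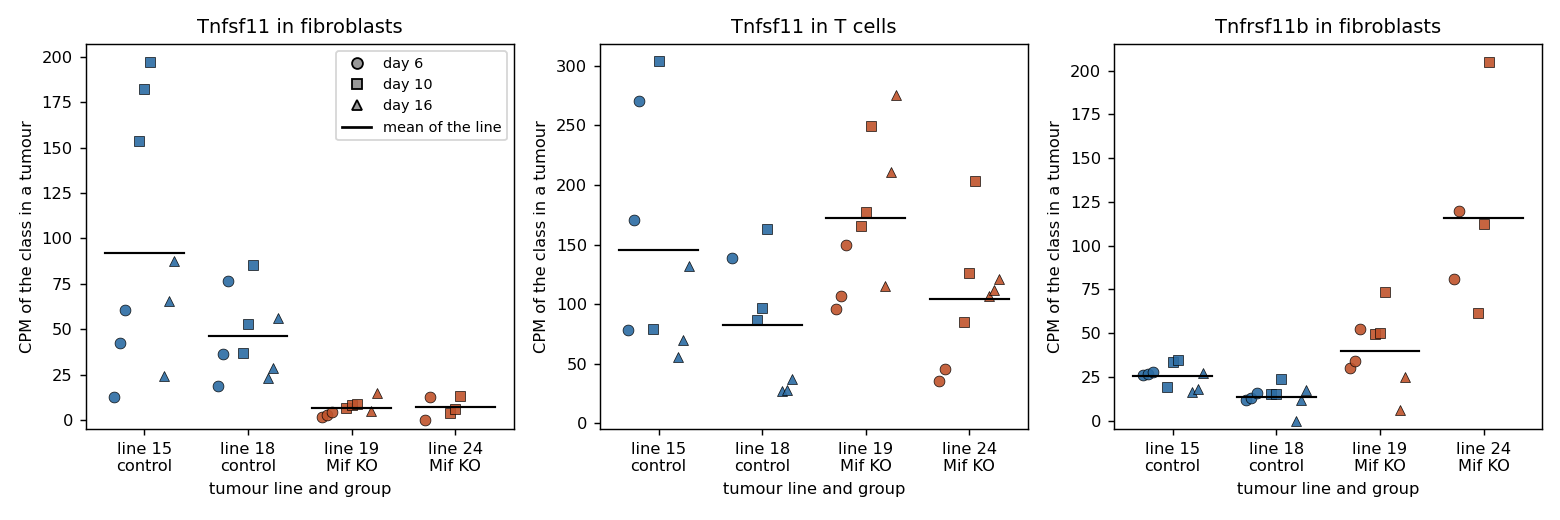
CPM of Tnfsf11 in fibroblasts (left) and T cells (middle) and of Tnfrsf11b in fibroblasts (right), by line; each symbol is 1 tumour with at least 20 cells of the class, its shape gives the day, and the bar is the mean of the line. In fibroblasts, 17 of 18 control tumours lie above every knockout tumour for Tnfsf11, and 9 of 13 knockout tumours lie above every control tumour for Tnfrsf11b.

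Among T cells, the level of Tnfsf11 was highest in cells with Cd4 UMIs, although these held fewer than 50% of its T-cell UMIs. Summed over tumours, cells with Cd4 but no Foxp3 or Cd8 UMIs had 336 CPM in control (128 cells, 95% Poisson interval 273 to 410) and 393 CPM in knockout tumours (667 cells, 361 to 428). The control value differed between its lines: the Cd4 cells had 441.3 CPM in line 15 (61 cells, 343 to 558) and 215 CPM in line 18 (67 cells, 144 to 309), against 398 CPM in line 19 and 388 CPM in line 24. Cells with Cd8 UMIs had 21.0 CPM (224 cells) and 37.6 CPM (1136 cells). Cells with Foxp3, the regulatory T-cell factor, had 20.4 CPM (98 cells) and 39.3 CPM (139 cells). The intervals cover counting error only, and these sums weight tumours by their T cells. The Foxp3 values and the control Cd8 value rested on few UMIs. On day 16 the Foxp3 cells of lines 15, 18, 19 and 24 held 3, 0, 6 and 0 Tnfsf11 UMIs. The Cd8 cells of that day held 0, 1, 14 and 52, in the same order of lines. Cells with none of the 3 markers, 442 and 2076 in number, had 127 and 143 CPM. Of the T-cell UMIs of Tnfsf11, the Cd4 cells held 98 of 220 in control and 536 of 1155 in knockout tumours, and the cells with none of the markers held 106 and 507.

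Tnfrsf11b, the decoy, was a fibroblast transcript in both groups. Fibroblasts held 78.4% of its 213 UMIs in control and 82.8% of its 412 UMIs in knockout tumours. Its level in fibroblasts of control tumours had a lowest value of 0, a median of 17.7 and a highest value of 34.6 CPM. In knockout tumours the lowest value was 5.92, the median 52.3 and the highest 205 CPM, and 9 of 13 knockout tumours lay above every control tumour. The means were 19.5 ± 8.64 (SD, n = 18) and 69.2 ± 52.3 CPM (SD, n = 13), a log2 change of 1.48 (SE 0.272, edgeR adjusted p = 0.000115). Line 24 was highest with a mean of 116 CPM, line 19 followed with 40.02, and lines 15 and 18 had 25.4 and 13.7 CPM. The change was 0.91 without line 24 (adjusted p = 0.00471) and 1.89 with 1 sum per line (adjusted p = 0.0451). Endothelial cells held it at 9.37 and 10.4 CPM, from 10 and 7 UMIs. By day, the control and knockout means were 20.1 ± 7.40 (SD, n = 6) and 63.4 ± 37.3 CPM (SD, n = 5) on day 6, and 23.5 ± 8.71 and 92.0 ± 60.0 CPM (SD, n = 6 each) on day 10. On day 16 control tumours had 15.0 ± 8.89 CPM (SD, n = 6), and the 2 knockout tumours with 20 or more fibroblasts, both of line 19, had 5.92 and 24.7 CPM. The higher knockout mean came from days 6 and 10, and line 24 gave no value on day 16. No test was run by day.

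Other members in fibroblasts were mixed. Itgb3, the β3 integrin chain, had a lowest, median and highest value of 23.2, 61.0 and 85.4 CPM in control tumours and 8.99, 29.9 and 57.0 CPM in knockout tumours. The groups overlapped, and its log2 change was -0.89 (SE 0.181, edgeR adjusted p = 0.00044). Ctsk, which fibroblasts also make, averaged 293 ± 72.1 (SD, n = 18) and 319 ± 86.9 CPM (SD, n = 13). Fibroblasts held 2291 of 50716 Ctsk UMIs in control (4.52%) and 1867 of 3003 in knockout tumours (62.2%), where osteoclast-like cells held 44916 and 383. Mmp9 was low in fibroblasts, at 3.27 ± 4.26 (SD, n = 18) and 26.5 ± 21.6 CPM (SD, n = 13), with 8 of 13 knockout tumours above every control tumour. Nfatc1 averaged 59.9 ± 14.5 (SD, n = 18) and 56.5 ± 19.5 CPM (SD, n = 13) and did not pass (log2 change -0.07, edgeR adjusted p = 0.814).

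Known regulators of RANK ligand in stroma were examined with 2 other lists. Of 20 upstream regulators, 7 were tested in fibroblasts, 2 rose and 3 fell, with a median log2 change of 0.20 against 0.01 over all genes tested, of which 18.4% were called. Il11, an interleukin-6 family cytokine, fell by 3.38 (edgeR adjusted p = 1.45e-08) and Wnt5a, a non-canonical WNT ligand, fell by 1.52 (edgeR adjusted p = 4.73e-05), while Spp1, the matrix protein osteopontin, rose by 0.86 and Csf1 by 0.70. Of 20 RANK signalling genes, 9 were tested, 2 rose and 1 fell, with a median of 0.13. Nfkb1, the NF-κB p105 subunit, rose by 0.71, and Fosl1, an AP-1 subunit, fell by 0.80. Of the 16 other osteoclast genes 4 were tested and did not pass, from Src at -0.23 to Mitf at 0.04. Nfkb1 was higher in the knockout group in every class fitted, by 0.98 in the line compartment, 1.06 in macrophages and monocytes and 0.68 in T cells.

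The receptor Tnfrsf11a was mainly a macrophage and monocyte transcript, with 54.5% of its UMIs there in control and 56.6% in knockout tumours. Its level in that class had a lowest value of 39.5, a median of 63.5 and a highest value of 81.6 CPM in control tumours, and 12.03, 20.9 and 44.8 CPM in knockout tumours. Only 1 control tumour, the day 10 tumour of line 18 with few osteoclast-like cells, fell among the knockout tumours. The means were 62.4 ± 11.8 (SD, n = 18) and 24.0 ± 9.03 CPM (SD, n = 17), a log2 change of -1.38 (SE 0.133, edgeR adjusted p = 4.73e-09), where 37.3% of 7153 genes passed. In the mixed libraries alone the change of Tnfrsf11a was -1.14 (adjusted p = 0.00718). With 1 sum per line it was -1.41, with an adjusted p of 0.0632 that no longer passed. Cells that passed the osteoclast gate were not in this class, and Tnfrsf11a was 149 CPM in them.

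Of the other members in macrophages and monocytes, Dcstamp moved the opposite way to the receptor. Its values were 0, 6.70 and 20.1 CPM (lowest, median and highest) in control and 0.963, 17.9 and 53.5 CPM in knockout tumours. The log2 change was 1.17 (SE 0.277, edgeR adjusted p = 0.0011), and without line 24 it no longer passed (1.16, adjusted p = 0.0694). Nfatc1 averaged 47.4 ± 14.5 (SD, n = 18) and 27.2 ± 6.49 CPM (SD, n = 17), a log2 change of -0.63 (edgeR adjusted p = 0.000401), which did not pass with library as a term (-0.46, adjusted p = 0.249). Ctsk averaged 36.8 ± 23.0 (SD, n = 18) and 7.18 ± 6.75 CPM (SD, n = 17), and Mmp9 30.5 ± 32.7 (SD, n = 18) and 4.26 ± 4.14 CPM (SD, n = 17). Acp5 averaged 140 ± 73.2 (SD, n = 18) and 120 ± 80.3 CPM (SD, n = 17). Control macrophages share their libraries with osteoclast-like cells, whose Ctsk level was 239 times that of the class, and the part of RNA from those cells in these values was not tested. The gate also missed cells of the osteoclast-like cluster. Of its cells with 1 hashtag, 699 passed the gate and 40 lay in the macrophage and monocyte class. A further 46 lay in the line compartment and 247 were ungated. The part of such cells in the values of these classes was not tested.

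**Figure D5:**
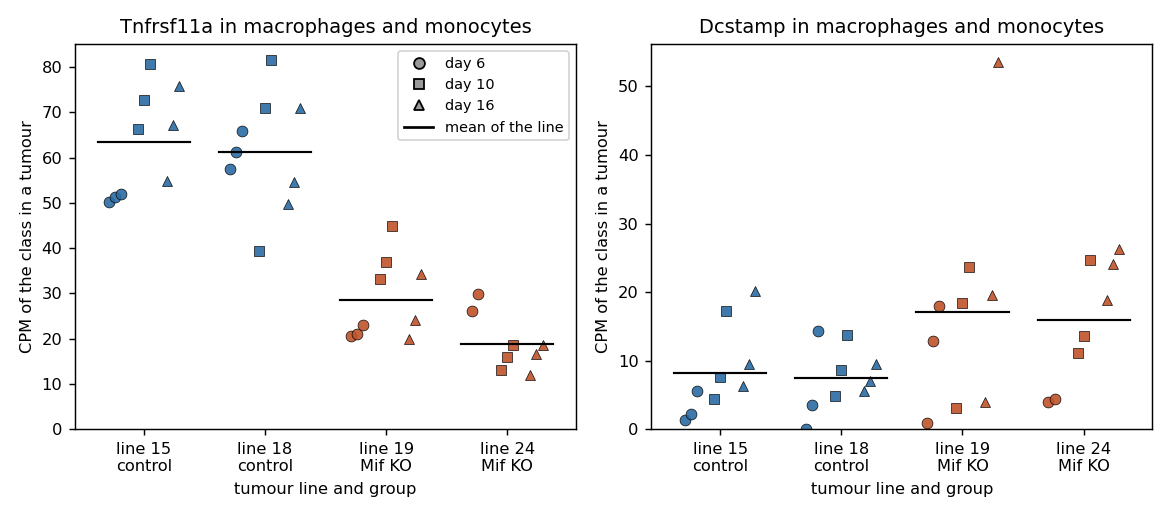
CPM of Tnfrsf11a (left) and Dcstamp (right) in macrophages and monocytes, by line; each symbol is 1 tumour, its shape gives the day, and the bar is the mean of the line. Tnfrsf11a averaged 62.4 CPM in control and 24.0 CPM in knockout tumours, while 1 tumour of line 19 stands high for Dcstamp at 53.5 CPM.

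In macrophages and monocytes, 10 of the 16 other osteoclast genes were tested, 2 rose and 5 fell, with a median log2 change of -0.28, beside 37.3% of all genes called. Slc37a2, a sugar-phosphate transporter, fell by 1.62 (edgeR adjusted p = 4.73e-09), and Ckb, Mitf and Atp6v1b2 fell by 0.73, 0.56 and 0.35. Of the 20 RANK signalling genes, 4 rose and 3 fell, with a median of 0.02, a share near that of all genes. Trem2 fell by 0.97 and Bcl6 by 0.70, and Irf8 rose by 0.59. Of the upstream regulators 7 were tested and 3 rose: Csf1 by 0.87, Il1b by 0.62 and Runx2 by 0.58.

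The line compartment held little of the axis. Tnfsf11 was at 0.132 and 0.131 CPM and Tnfrsf11b at 0.102 and 0.0729 CPM, in control and knockout tumours, from 27 or fewer UMIs each in 24216 and 23390 cells. The means that follow are over all 21 samples of a group, day 0 included, and Nfatc1 and Atp6v0d2 passed without day 0 too. Nfatc1 averaged 48.5 ± 15.9 (SD, n = 21) and 28.1 ± 11.2 CPM (SD, n = 21), a log2 change of -0.70 (SE 0.105, edgeR adjusted p = 9.14e-07), where 49.7% of 11703 genes passed. Atp6v0d2 averaged 5.54 ± 4.25 and 0.590 ± 0.786 CPM (SD, n = 21 each), a log2 change of -2.91 (edgeR adjusted p = 1.44e-07). In the 2 mixed libraries alone neither passed (Nfatc1 -0.50, adjusted p = 0.203, and Atp6v0d2 -1.33, adjusted p = 0.123). In control tumours 700 Atp6v0d2 UMIs in the compartment lay in 1 cluster of 3275 cells, at 22.5 CPM. That cluster held only 473 knockout cells, at 9.60 CPM (51 UMIs), while another with 3286 knockout and 381 control cells had 0.749 and 4.30 CPM. The change over the compartment therefore also counts which clusters the cells of a group lie in. Levels differed inside clusters too. A cluster of 4721 control and 4454 knockout cells had 5.60 and 0.545 CPM, in that order. Another, of 1503 control and 1703 knockout cells, had 4.48 and 0.497 CPM. None of the clusters examined had a higher level in knockout cells. Mmp9 averaged 17.2 ± 9.55 CPM in line 24 (SD, n = 10) and 0.594 to 2.92 CPM in the other lines. Ctsk averaged 3.95 ± 1.98 and 1.55 ± 1.93 CPM and Acp5 3.84 ± 2.29 and 1.19 ± 1.29 CPM (SD, n = 21 each), levels far under those of osteoclast-like cells.

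Regulators of osteoclasts made by the line compartment were mixed. Pthlh, the parathyroid hormone-related protein that induces RANK ligand, fell by 0.57 on the log2 scale (edgeR adjusted p = 0.000441). Il1b rose by 1.79 and Lif by 1.47, and Dmp1, a bone matrix protein, by 3.09 (edgeR adjusted p = 1.03e-12). Of 12 upstream regulators tested there, 7 rose and 1 fell. Of 18 RANK signalling genes, 8 rose and 2 fell, and of 11 other osteoclast genes 2 rose and 6 fell, beside 49.7% of all genes called.

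Summed over all cells of a tumour, the members showed the mixture of these classes. The fit used all 42 samples with day as a term, and without day 0 each of the 5 members tested kept its direction and its side of the threshold. The means below are of days 6 to 16. In such sums fewer cells of a type and less RNA per cell cannot be told apart. Most UMIs of Ctsk, Acp5, Mmp9, Dcstamp and Atp6v0d2 in control tumours lay in the osteoclast-like cells, so these 5 have no test here. Of the other 5 members, Tnfrsf11a and Nfatc1 were lower and Tnfrsf11b was higher in knockout tumours by the test, beside 50.3% of 12790 genes called, and Tnfsf11 and Itgb3 did not pass. Ctsk averaged 197 ± 147 (SD, n = 18) and 12.2 ± 7.14 CPM (SD, n = 17), Acp5 201 ± 162 (SD, n = 18) and 16.6 ± 14.9 CPM (SD, n = 17), and Mmp9 99.2 ± 81.7 (SD, n = 18) and 9.20 ± 7.76 CPM (SD, n = 17). The log2 change of Dcstamp was -2.08, and -0.10 without the osteoclast-like cells. That of Tnfrsf11a was -2.05 (edgeR adjusted p = 3.47e-07), and -1.65 without those cells (edgeR adjusted p = 1.16e-05). That of Nfatc1 was -0.75 (edgeR adjusted p = 6.91e-07), and -0.55 without them (edgeR adjusted p = 2.36e-05). Atp6v0d2 averaged 24.5 ± 17.9 (SD, n = 18) and 0.998 ± 0.840 CPM (SD, n = 17), with 16 of 18 control tumours above every knockout tumour, and its log2 change was -4.36, or -3.09 without the osteoclast-like cells. Tnfsf11 averaged 3.92 ± 3.01 (SD, n = 18) and 6.52 ± 5.69 CPM (SD, n = 17) and did not pass (log2 change 0.80, SE 0.370, edgeR adjusted p = 0.0688). It passed in DESeq2 (0.92, adjusted p = 0.0222) and without line 15 (1.42, adjusted p = 0.0221) or line 19 (1.51, adjusted p = 0.00146), and was 0.06 without line 24. Tnfrsf11b averaged 0.857 ± 0.539 (SD, n = 18) and 2.02 ± 1.998 CPM (SD, n = 17), with a change of 1.06 (edgeR adjusted p = 0.00967) that was 0.32 without line 24 (adjusted p = 0.453) and 0.49 without line 18 (adjusted p = 0.328). In edgeR on 1 sum per line the adjusted p of the 5 members tested ranged from 0.444 (Tnfrsf11a and Nfatc1) to 0.673 (Tnfsf11), and 0 genes of the whole table passed, with 1605 at an unadjusted p under 0.05.

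Between day 6 and day 16, in the same sums of both groups, Tnfrsf11b fell by 1.31 on the log2 scale (SE 0.437, edgeR adjusted p = 0.0340), where 17.3% of genes passed. The 5 members held mostly by osteoclast-like cells in control tumours are given with no test: the log2 change was 1.95 for Acp5, 1.89 for Dcstamp, 1.86 for Mmp9, 1.24 for Atp6v0d2 and 0.43 for Ctsk. The Ctsk value pools opposite directions: its mean went from 74.4 to 213 CPM in control and from 17.0 to 9.87 CPM in knockout tumours. Means of Acp5, Dcstamp, Mmp9 and Atp6v0d2 were higher on day 16 than on day 6 in both groups. Tnfsf11, Tnfrsf11a, Nfatc1 and Itgb3 did not pass, with changes of 0.55, 0.71, 0.08 and 0.14, although Tnfrsf11a passed without line 19 (1.12, adjusted p = 0.0098). The call of Tnfrsf11b was lost without line 18 (-1.49, adjusted p = 0.0916) and without line 19 (-1.14, adjusted p = 0.0695). For Tnfsf11, Tnfrsf11a and Tnfrsf11b the group means behind the pooled values are given side by side. On days 6, 10 and 16, mean Tnfsf11 was 3.09, 6.61 and 2.05 CPM in control tumours (n = 6 each). In knockout tumours it was 2.59, 7.96 and 8.37 CPM (n = 5, 6 and 6). The groups were thus close on days 6 and 10 and apart on day 16. Mean Tnfrsf11a was 5.48, 13.8 and 14.8 CPM in control and 2.58, 2.14 and 2.33 CPM in knockout tumours. Mean Tnfrsf11b was 0.903, 1.08 and 0.590 CPM in control and 2.69, 2.88 and 0.595 CPM in knockout tumours. Its fall from day 6 to day 16 was thus larger in knockout tumours. The difference between groups in the change over days was not tested.

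Over 32 sums of a line and class with at least 50 cells, the genes most correlated with Ctsk were Mst1r, Sbsn, Bdh2, Slc9b2 and Tmem267 (Pearson r 0.86 to 0.90 on log2(CPM + 1)). Those nearest to Tnfsf11 were Sv2c, Bmp7, Thy1, Neb and Rora (0.84 to 0.90), and those nearest to Tnfrsf11b were C2, Ndn, C1qtnf5, Slc10a6 and Nynrin (0.93 to 0.95). The sums share libraries and lines, and the values are descriptions. Slc9b2 is a sodium-proton exchanger known from osteoclasts, and Thy1 is a surface protein of T cells and fibroblasts.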

How the data were processed

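Droplet 5′ single-cell RNA libraries with hashtag antibodies were analysed from 6 deposited matrices of raw UMI counts per gene and cell. Per the submitters' processing notes, Cell Ranger 6.0.0 and the mm10 build were used. The authors deposited the counts without normalization, and a deposited sheet links hashtags to line, day and letter. Other upstream steps: not given in the sources used here.

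The cell filter asked for 300 or more genes and no more than 15% mitochondrial counts. Hashtags were called with Seurat 5.3.0 (HTODemux), doublets and negatives were removed, and 2 of 47 hashtags with under 0.1% of a library's hashtag counts were left out. No doublet caller on RNA was run, so doublets within a hashtag remain. Cells were placed in classes by UMIs of marker genes. The thresholds were set after the clusters (scanpy 1.11.5, Leiden resolution 1.0) had been seen, and ungated and mixed cells stayed out of class comparisons. For each hashtagged sample, the UMI counts of a class with 20 or more cells were added up. The sums were tested with edgeR 4.0.16 (filterByExpr, TMM, quasi-likelihood, day and group as terms), with Benjamini-Hochberg adjustment over all genes tested at a threshold of 0.05. Levels are CPM without TMM. Intervals are exact Poisson at 95% and cover counting error only.

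The members and gene lists were chosen with earlier results of these data known. The fibroblast fit and the test of fibroblasts against T cells were added after the data had been seen. The planned permutation test of the osteoclast-like share, and tests over all cells of the 5 members held mostly by these cells, are not reported, since tumours with and without these cells were known when the genes were chosen. Within a line, 6 planned relations of that share to the level of Tnfsf11 or Tnfrsf11b over all other cells were run (n = 9 each). The adjusted exact permutation p was 0.0916 to 0.700 for Pearson's r and 0.0364 to 0.800 for Spearman's rho. These relations are not read as results, because the share chose the genes and tumours of different days were treated as exchangeable. Named genes are the 10 members, at most the 4 genes of each list with the smallest adjusted p in a comparison, and the 5 genes most correlated with Ctsk, Tnfsf11 and Tnfrsf11b. Osteoclast and macrophage genes given for the osteoclast-like cells were picked after their values were seen. The values of 1 listed gene are not reported here. The 3 tumours labelled WT are in no comparison. Alternatives were DESeq2 1.42.0, RLE scaling, no low-count filter, other hashtag and cell filters, library as a term, the hashtag letter as a replicate block (added after the data had been seen), the 2 mixed libraries alone, 1 sum per line and leaving out each line. On simulated counts with 200 changed genes, the fit recovered 89.9% (all cells), 95.9% (line compartment), 96.8% (macrophages and monocytes), 96.6% (T cells) and 98.9% (fibroblasts) of genes changed by a log2 of 1. Of its calls, 7.54%, 5.88%, 2.09%, 3.03% and 4.64% in that order were of unchanged genes. The simulation drew each tumour independently, with no effect of line, library or day. These rates therefore do not cover the nesting of lines in groups.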

Additional observations from a re-analysis of the deposited data

Results flagged for a closer look

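Of 99 groups of tumours examined for 1 tumour far from the others, 10 had one, and chance gives about 1 in 20. In osteoclast-like cells of line 15, the highest of 6 tumours stood apart for Acp5 (14445 CPM), Tnfrsf11a (202 CPM) and Itgb3 (149 CPM). In fibroblasts of line 18, 1 tumour of 9 had no Tnfrsf11b UMI (0 CPM), from 21 cells. In line 18, Itgb3 over all cells was highest in 1 tumour at 7.31 CPM. In line 19, the share of osteoclast-like cells was 0.128% in 1 tumour, and macrophages and monocytes had 53.5 CPM of Dcstamp in 1 tumour and 19.6 CPM of Ctsk in 1 tumour. Nfatc1 was 50.3 CPM over all cells in 1 tumour of line 19 and 40.6 CPM in macrophages and monocytes of 1 tumour of line 24.

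The change of Tnfsf11 between knockout and control tumours differed between 2 cell classes. In fibroblasts minus T cells of the same tumour it was -3.60 on the log2 scale, by a two-sided permutation test of the difference (p = 2e-05, the smallest that 100000 resamples can give, over tumours and not lines), with 13 of 13 knockout tumours below 0 and 4 of 15 control tumours above it. With 1 mean per line the exact permutation p was 0.33. The test was chosen after the values of both classes had been seen, and it is listed here without a flagging rule.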

How the results depend on the processing

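Replicate numbers of the sample labels, which are line numbers, are not shared between groups, but hashtag letters are. Control and knockout samples of the same day and letter did not deviate together. Their median r was 0.0074 over 40 pairs and 8284 genes, with 15 pairs above 0.1. Over 74 pairs of other letters the median r was -0.0014, with 30 pairs above 0.1. Deviations were taken from group and day means, so they hold the differences between the 2 lines of a group. The values thus show no pairing by letter but cannot exclude it. Letter C marks the samples of the 2 mixed libraries and A and B those of single-line libraries, so a block by letter also takes out part of the difference between these kinds of library. With the letter as a replicate block, 6414 genes passed over all cells, 2205 for day 16 against day 6, 5815 in the line compartment, 2645 in macrophages and monocytes, 428 in T cells and 951 in fibroblasts. The block changed no call of a member that is given with a test. Counts of genes past the threshold depended on how lines and libraries were treated. Over all cells, 6434 genes passed, against 0 with 1 sum per line (1605 at an unadjusted p under 0.05 in edgeR), 318 in the mixed libraries alone, 1465 with library as a term and 4692 to 8192 when a line was left out. For day 16 against day 6, 2212 passed, against 3847 with library as a term, 1194 with the other hashtag call and 312 to 3807 when a line was left out. In the line compartment 5820 passed, against 0 (1222 unadjusted in edgeR), 491, 1619 and 4231 to 7103 in the same order as for all cells. In macrophages and monocytes 2671 passed, against 7, 298, 311 and 783 to 3119. In T cells 423 passed, against 0 (1060 unadjusted in edgeR), 5, 7 and 105 to 418, and 747 with no low-count filter. In fibroblasts 953 passed, against 472, 293, 379 and 502 to 1052. The cause was not tested. The difference in osteoclast-like share, -1.79 percentage points, was -8.39 as a share of gated immune cells and -2.04 to -1.54 when a line was left out. Mmp9 reversed over all cells without the osteoclast-like cells (0.49) and in the line compartment without line 24 (-1.72), where leaving out a line in turn gave -1.72 to 3.14. In fibroblasts, all 75 values of the 5 members tested kept their side of the threshold, and the members called kept their direction. In every class, members that passed the low-count filter of the main fit were kept in each alternative. Few molecules limit Tnfsf11 and Tnfrsf11b, and 2 lines per group limit every contrast.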

Other observations

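The 3 tumours labelled WT, of days 6, 10 and 16, belong to neither group. Their shares of osteoclast-like cells were 0.0343%, 0.225% and 0.0952%. Fibroblast Tnfsf11 was 33.4, 9.18 and 20.3 CPM, and fibroblast Tnfrsf11b 18.5, 18.4 and 22.8 CPM. T-cell Tnfsf11 was 129, 194 and 64.9 CPM. Of 152 Tnfsf11 UMIs in these tumours, 19.1% lay in fibroblasts and 39.5% in T cells. Macrophages and monocytes had 31.5, 56.0 and 36.9 CPM of Tnfrsf11a. Mean Mif in their line compartment was 2457 CPM.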
